A study of Mus musculus with 8 samples.

Results

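The 10 genes Ifng, Tnf, Il2, Il16, Tgfb1, Ccl3, Ccl4, Ccl5, Xcl1 and Lta encode cytokines and chemokines that CD8+ T cells can make. They were taken by gene symbol from a table of 55291 genes, in which all 10 were found. Counts came from RNA sequencing of CD8+ T cells enriched from mouse spleen on magnetic particles, with 4 libraries labelled ATF4 overexpression (genotype label ATF4 Tg/Tg) and 4 labelled WT. Every sample title, in both groups, names the cells as naïve CD8 T cells. All mice were naïve, the labels describe no stimulation of the cells, and no source used here gives the age of the mice. The series design text names the 2 kinds of mice ATF4Tg/Tg and E8IcreATF4Tg/Tg, so the mice behind the WT label may carry the transgene without Cre. E8I-Cre is driven by an enhancer of the Cd8a locus and acts in CD8+ T cells. ATF4 is the transcription factor of the integrated stress response, and the comparison asks how its forced expression in resting CD8+ T cells moved these transcripts. Whether each sample is a separate mouse is not stated in the labels, and the p-values therefore rest on a spread among samples that may be technical only.

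A resting CD8+ T cell holds little cytokine mRNA. After antigen it transcribes Ifng, Tnf and Il2 within hours, and RNA-binding proteins of the ZFP36 and Roquin families then shorten the life of those messages. Memory cells and NK cells differ from naïve T cells in that they keep Ccl5 mRNA ready and release CCL3, CCL4, CCL5 and XCL1 quickly, and these chemokines attract macrophages, T cells and cross-presenting dendritic cells. IL-16 and TGF-beta 1 are different: both are made as inactive precursors in resting lymphocytes, so their mRNA says little about the active protein.

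Library totals ran from 93478686 to 125974143 estimated counts, so sampling error is small for 9 of the 10 genes. Libraries fell into 2 sets by the way their columns are named, replicates 1 and 2 (set 1) and replicates 3 and 4 (set 2) of each group. In 4 libraries (WT replicates 1 and 4, ATF4 overexpression replicates 1 and 2) genes with 2 to 5 counts made up under 4% of the genes detected, and these are called short of low counts. Leaving these 4 out keeps 1 WT library of each set (replicates 2 and 3) against ATF4 overexpression replicates 3 and 4, both of set 2, so in that fit group and library set are partly confounded and their effects cannot be told apart. Atf4 was at 231 ± 76.4 CPM (counts scaled to a library of 1000000) in WT and 328 ± 125 in ATF4 overexpression (SD, n = 4; edgeR adjusted p = 0.37, and 2.2e-04 with the replicate number as a block). Its target Asns went from 0.307 to 166 CPM. Within each set both ATF4 overexpression libraries had more Atf4 (445 and 427 against 285 and 308 CPM in set 1, 228 and 212 against 165 and 165 CPM in set 2), while the fit without the 4 libraries, with its unmatched sets, gave a log2 fold change of -0.11. Cd8a, the co-receptor that defines the cells, was lower in ATF4 overexpression, at 1395 ± 106 CPM in WT and 1085 ± 73.8 CPM (SD, n = 4). Its log2 fold change was -0.36 (edgeR adjusted p = 0.013, and 0.0013 with the replicate block), and the groups did not overlap. Without the 4 libraries it was -0.35 and not called (adjusted p = 0.11).

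Of the 10 genes, 9 passed the low-count filter and were tested, and Il2 did not pass. In ATF4 overexpression Ccl3, Ccl5 and Tgfb1 were higher, and no gene was lower (edgeR quasi-likelihood test, Benjamini-Hochberg adjusted p below 0.05 over 16630 genes). Among all genes tested 9.16% were called higher and 4.89% lower. At an unadjusted p below 0.05 there were 4 of the 9 higher and 0 lower. The share of all genes at that unadjusted threshold is not given, so counts at it, here and below, cannot be set against such a share. DESeq2 called 4 higher and 0 lower, where it called 11.9% and 5.60% of all genes. The median log2 fold change was 0.68 over the 9 genes and -0.02 over all genes tested. The same 3 genes, Ccl3, Ccl5 and Tgfb1, had groups that did not overlap, which held for 13.3% of all genes on the higher side. With the replicate number as a block, 3 genes were higher (Ifng, Tgfb1 and Xcl1) and Tnf was lower, where 13.7% and 13.5% of all genes were called. With the library set as a block, 4 genes were higher (Ifng, Tgfb1, Ccl5 and Xcl1) and Tnf was lower (14.0% and 11.6% of all genes). Within set 1, 5 genes were higher and 0 lower (6.75% and 3.07% of all genes), and within set 2, 4 were higher and 1 lower (14.3% and 8.0%). Without the 4 libraries short of low counts, where the sets are not matched between groups, edgeR called 0 of 10 genes in either direction (3 higher and 0 lower at an unadjusted p below 0.05), against 7.29% of all genes called higher and 1.94% lower.

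**Figure D1:**
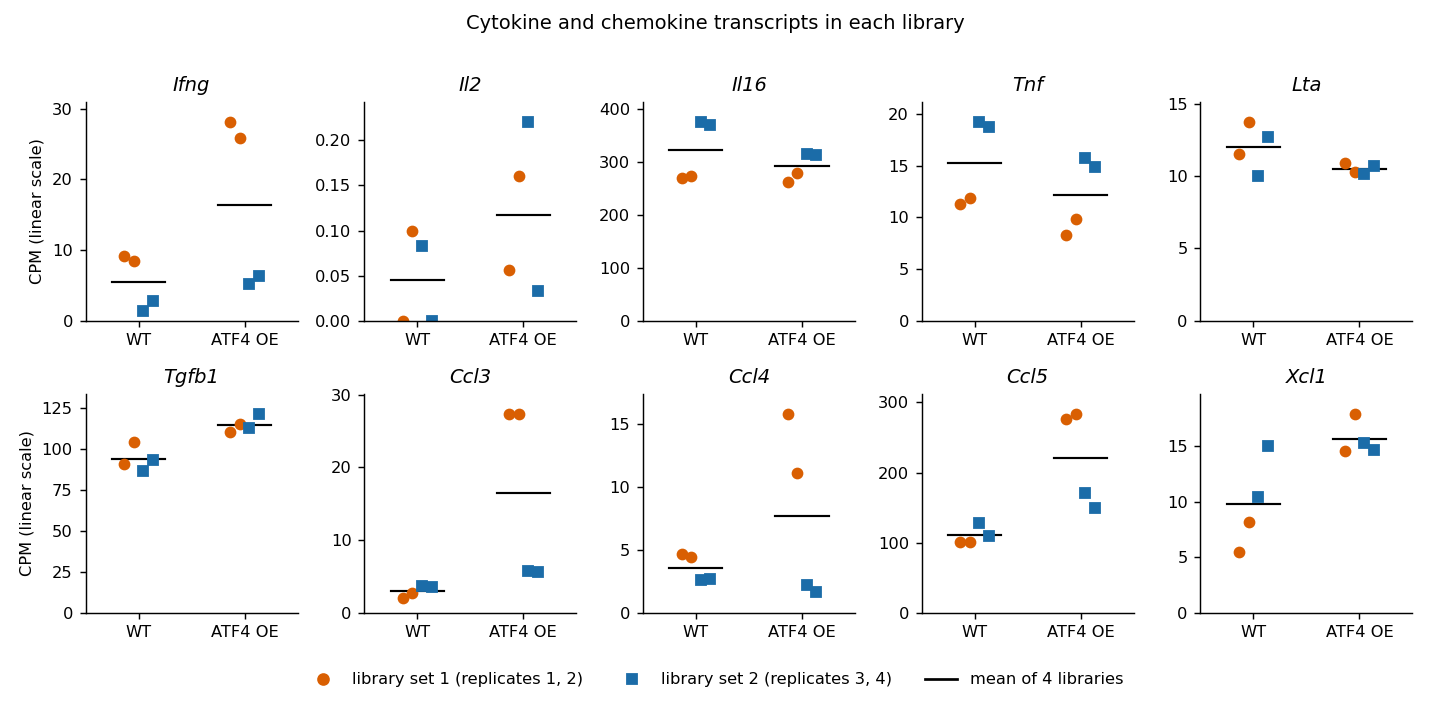
Each panel plots 1 gene in CPM on a linear axis from 0, with 1 point per library, circles for library set 1, squares for library set 2 and a line at the mean of the 4 libraries. Ccl3, Ccl5 and Tgfb1 have no WT library as high as any ATF4 overexpression library, while Ifng, Ccl3, Ccl4 and Ccl5 are spread by library set within ATF4 overexpression.

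Ifng encodes interferon-gamma, the cytokine by which CD8+ T cells activate macrophages and raise antigen presentation. It was at 9.15, 8.44, 1.42 and 2.85 CPM in WT replicates 1 to 4 and at 28.1, 25.8, 5.18 and 6.28 CPM in ATF4 overexpression. Set 1 was higher than set 2 in both groups, and within each set both ATF4 overexpression libraries were above both WT libraries. Across all 8 libraries the groups overlapped and the log2 fold change of 1.58 ± 0.75 (SE) missed the threshold (edgeR, adjusted p = 0.22). With the replicate block it was 1.56 ± 0.14 and passed (edgeR, adjusted p = 1.0e-04), and it was 1.65 within set 1 (adjusted p = 2.4e-04) and 1.43 within set 2 (adjusted p = 0.030). Over 17 alternative fits the adjusted p of Ifng ran from 1.0e-04 to 0.90, and the highest was that without the 4 libraries short of low counts (log2 fold change 0.22). That fit sets WT libraries at 8.44 (set 1) and 1.42 CPM (set 2) against 5.18 and 6.28 CPM, both of set 2.

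Ifng (ENSMUSG00000055170.4; chromosome 10, 118441046 to 118445892, plus strand, GRCm38) contains the provisional transcript Gm49751, annotated on the same strand inside it, and Salmon divided reads between them. Gm49751 averaged 2.25 ± 0.38 CPM across WT and 5.27 ± 0.49 across ATF4 overexpression (SD, n = 4; log2 fold change 1.22, edgeR adjusted p = 0.0031). The sum of both was at 11.6, 10.3, 4.14 and 4.86 CPM in WT and at 33.3, 31.7, 10.5 and 10.98 CPM in ATF4 overexpression. The sum, like Ifng itself, was higher in ATF4 overexpression within each set and overlapped between the groups.

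Il2 encodes the growth factor that activated T cells secrete. Il2 (ENSMUSG00000027720.7) lies on chromosome 3, 37120523 to 37125959, minus strand. It was nearly silent, at 0, 0.0993, 0.0834 and 0 CPM in WT and 0.0561, 0.160, 0.220 and 0.0335 CPM in ATF4 overexpression. The Adad1 gene overlaps Il2 on the opposite strand and had 0 counts. The groups overlapped, and p was 0.23 in a two-sided exact permutation test (70 assignments, smallest possible p 0.029). A difference between groups of 0.0719 CPM was not detectable with this spread among libraries. WT replicates 1 and 4, the WT libraries at 0, are both short of low counts, as are ATF4 overexpression replicates 1 and 2.

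Il16 encodes pro-IL-16, a precursor that is cleaved to release a ligand of CD4. Il16 (ENSMUSG00000001741.12) lies on chromosome 7, 83642825 to 83745726, minus strand. It was abundant, at 270, 274, 375 and 370 CPM in WT and 261, 278, 314 and 312 CPM in ATF4 overexpression. Stard5, on the opposite strand, overlaps Il16 and averaged 1159 counts a library, and the strand setting of the counting is not known. Set 2 was higher than set 1 in both groups, and the groups overlapped. The log2 fold change of -0.14 ± 0.13 (SE) missed the threshold (edgeR, adjusted p = 0.55, from 0.021 to 0.93 over 17 alternatives). Within set 2 it was lower (-0.25, edgeR adjusted p = 0.021), while within set 1 the value was 0.02.

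Tnf encodes tumor necrosis factor and Lta lymphotoxin-alpha, which both bind the TNF receptors and lie 1157 bases apart on chromosome 17. Tnf (ENSMUSG00000024401.14) lies on chromosome 17, 35199381 to 35202007, minus strand. Tnf was at 11.3, 11.9, 19.2 and 18.8 CPM in WT and at 8.27, 9.79, 15.8 and 14.9 CPM in ATF4 overexpression. Within each set both ATF4 overexpression libraries were below both WT libraries, and set 2 was above set 1. The log2 fold change of -0.33 ± 0.26 (SE) missed the threshold (edgeR, adjusted p = 0.49). With the replicate block it was -0.34 ± 0.09 and Tnf was lower (edgeR, adjusted p = 0.028, from 0.023 to 0.97 over 17 alternatives). Lta (ENSMUSG00000024402.5) lies on chromosome 17, 35203165 to 35205351, minus strand. Lta was at 11.5, 13.7, 9.998 and 12.7 CPM in WT and at 10.9, 10.2, 10.1 and 10.7 CPM in ATF4 overexpression. Its groups overlapped, and its log2 fold change of -0.19 ± 0.13 did not pass in any of 18 fits (edgeR or DESeq2, adjusted p from 0.27 to 0.68). Tnf had a negative and Ifng a positive log2 fold change in both library sets. Summed CPM of 16 B cell markers, cells that also express Lta, was 642 to 857 in WT and 719 to 1318 in ATF4 overexpression, with 10 of 16 higher, 0 lower and none at 0 in all WT libraries. Most of the WT sum was Ighm, at 560 to 698 CPM in WT and 474 to 705 CPM in ATF4 overexpression, which was not called (edgeR adjusted p = 0.72). The sum therefore says little about the other B cell markers. The part of B cells in the values of Lta and Tnf was not tested.

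Tgfb1 encodes the latent form of TGF-beta 1, a cytokine that restrains effector T cells once activated. Tgfb1 (ENSMUSG00000002603.15) lies on chromosome 7, 25687002 to 25705077, plus strand. It was at 91.1, 105, 86.4 and 93.1 CPM in WT and at 110, 115, 113 and 121 CPM in ATF4 overexpression. Every ATF4 overexpression library was above every WT library, and the 2 sets overlapped within each group. The rise was small, with a log2 fold change of 0.29 ± 0.07 (SE; edgeR, adjusted p = 0.027), and it held with the replicate block (0.30, adjusted p = 0.0038). Without the 4 libraries short of low counts the value was the same 0.29 and no longer passed (adjusted p = 0.22, the highest of 17 alternatives, of which the lowest was 0.0024). Within set 1 the log2 fold change was 0.24 and not called (edgeR, adjusted p = 0.19). Within set 2 it was 0.39 and called (adjusted p = 0.011). The call also ended on leaving out any 1 of WT replicates 1, 3 and 4 and of ATF4 overexpression replicates 2 and 4, with adjusted p up to 0.084 and log2 fold changes between 0.26 and 0.35 over the 8 fits that leave out 1 library.

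Platelets and myeloid cells also carry Tgfb1 mRNA, and most of their markers moved in the same direction. The summed CPM of 10 platelet and megakaryocyte markers was 26.9 to 36.9 in WT and 69.8 to 85.9 in ATF4 overexpression, with 7 of 10 higher and 0 lower. Most of each sum was Itgb3, at 23.1 to 32.1 CPM in WT and 58.2 to 65.8 CPM in ATF4 overexpression. The platelet sum therefore says little about the other markers. Gp9 was at 0 in all WT libraries. The 16 myeloid markers summed to 439 to 587 CPM in WT and 535 to 781 CPM in ATF4 overexpression, with 9 higher, 1 lower and none at 0 in all WT libraries. Most of the WT sum was Ly6c2 (250 to 336 CPM) and Ctss (141 to 182 CPM). In ATF4 overexpression Ly6c2 was at 238 to 300 CPM and not called (edgeR adjusted p = 0.54). Ctss was lower there, at 120 to 140 CPM (edgeR adjusted p = 0.036). The myeloid sum therefore says little about the other markers. The part of platelets and myeloid cells in the rise of Tgfb1 was not tested. In a bulk sample fewer cells of a type and less RNA per cell cannot be told apart.

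Ccl3 and Ccl4 encode MIP-1 alpha and MIP-1 beta, chemokines that effector T cells and NK cells release, and lie 13228 bases apart on chromosome 11. Ccl3 (ENSMUSG00000000982.5) lies on chromosome 11, 83647844 to 83649355, minus strand. Ccl3 was at 2.02, 2.67, 3.64 and 3.55 CPM in WT and at 27.3, 27.3, 5.75 and 5.54 CPM in ATF4 overexpression. All 4 ATF4 overexpression libraries were above all WT libraries, by 11.6-fold on average in set 1 and 1.57-fold in set 2. The log2 fold change was 2.47 ± 0.58 (SE; edgeR, adjusted p = 0.021). It was 3.57 within set 1 (adjusted p = 2.6e-05) and 0.65 within set 2 (adjusted p = 0.033). The replicate block, which assumes 1 effect in all pairs, gave 2.09 and no call (edgeR, adjusted p = 0.16, the highest of 17 alternatives, of which the lowest was 2.6e-05). With the library set block it was 2.09 (adjusted p = 0.066), and without the 4 libraries short of low counts, with sets unmatched, 0.84 (adjusted p = 0.12). The call also ended without any 1 of the 4 WT libraries (adjusted p from 0.052 to 0.065) and without ATF4 overexpression replicate 2 (adjusted p = 0.050).

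Ccl4 split by library set. Ccl4 (ENSMUSG00000018930.3) lies on chromosome 11, 83662584 to 83664683, plus strand. It was at 4.65, 4.42, 2.59 and 2.69 CPM in WT and at 15.8, 11.1, 2.22 and 1.69 CPM in ATF4 overexpression. In set 1 both ATF4 overexpression libraries were above both WT libraries, and in set 2 both were below. The log2 fold change of 1.105 ± 0.67 (SE) missed the threshold (edgeR, adjusted p = 0.35), but Ccl4 was higher within set 1 (1.60, adjusted p = 0.0030). It was at -0.43 within set 2 (adjusted p = 0.29). Over 17 alternatives the adjusted p ran from 0.0030 to 0.72.

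The ratio of Ccl3 to Ccl4 within a library, each in CPM per kilobase of merged exons, was computed after these values were seen. It was 0.374, 0.521, 1.21 and 1.14 in WT and 1.49, 2.11, 2.23 and 2.82 in ATF4 overexpression. Every ATF4 overexpression library had a higher ratio than every WT library, with a 2.93-fold difference of the geometric means (exact two-sided permutation test over 70 assignments, p = 0.029, the smallest it can give). The difference was 4.02-fold in set 1 and 2.14-fold in set 2, and set 2 had the higher ratio within WT. The ratio does not depend on how libraries were scaled.

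Ccl5 encodes RANTES, a chemokine that memory CD8+ T cells and NK cells store as mRNA. Ccl5 (ENSMUSG00000035042.2) lies on chromosome 11, 83525778 to 83530518, minus strand. It was at 101, 101, 129 and 110 CPM in WT and at 277, 283, 170 and 150 CPM in ATF4 overexpression. No WT library reached the lowest ATF4 overexpression library, and set 1 rose further than set 2. The log2 fold change was 0.997 ± 0.21 (SE; edgeR, adjusted p = 0.011), with 1.5 within set 1 (adjusted p = 3.5e-05) and 0.43 within set 2 (adjusted p = 0.029). The call held in all 8 fits without 1 library (adjusted p from 0.0037 to 0.038). It held with the library set block (0.95, adjusted p = 0.020). It was lost with the replicate block (0.95, adjusted p = 0.086) and without the 4 libraries short of low counts, with sets unmatched (0.48, adjusted p = 0.12), and over 17 alternatives the adjusted p ran from 1.2e-05 to 0.12.

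Xcl1 encodes lymphotactin, the ligand that draws XCR1+ dendritic cells to CD8+ T cells. Xcl1 (ENSMUSG00000026573.7) lies on chromosome 1, 164931644 to 164935527, minus strand. It was at 5.43, 8.22, 10.4 and 15.0 CPM in WT and at 14.6, 17.9, 15.3 and 14.7 CPM in ATF4 overexpression. The 4 ATF4 overexpression libraries lay close together, while WT spread widely and its replicate 4 reached into their range. The log2 fold change of 0.68 ± 0.26 (SE) missed the threshold (edgeR, adjusted p = 0.13). Xcl1 was higher with the replicate block (0.77, edgeR adjusted p = 0.048), without WT replicate 4 (0.96, adjusted p = 0.023) and within set 1 (1.28, adjusted p = 0.012), and over 17 alternatives the adjusted p ran from 0.012 to 0.39.

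The genotype effect differed between the library sets for 3 of the 9 genes, all of them CC chemokines, where 0.998% of all genes tested had such an interaction (edgeR, adjusted p below 0.05). The trait was not particular to these chemokines. Each of the 12 NK cell markers described below had it, as did Klrk1, Itgam and Cd4 (edgeR, adjusted p = 3.6e-05, 9.8e-05 and 0.0048). On the log2 scale the effect in set 2 was below that in set 1 by 2.89 ± 0.23 (SE) for Ccl3 (adjusted p = 4.9e-04), by 2.004 ± 0.32 for Ccl4 (adjusted p = 0.022) and by 1.04 ± 0.13 for Ccl5 (adjusted p = 0.0048). For Xcl1 the difference was -1.01 ± 0.32 (adjusted p = 0.22). For Ifng it was -0.19 ± 0.37 (adjusted p = 0.89) and for Tgfb1 0.18 ± 0.12 (adjusted p = 0.59), so no difference was detectable for these genes with 2 libraries a cell.

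**Figure D2:**
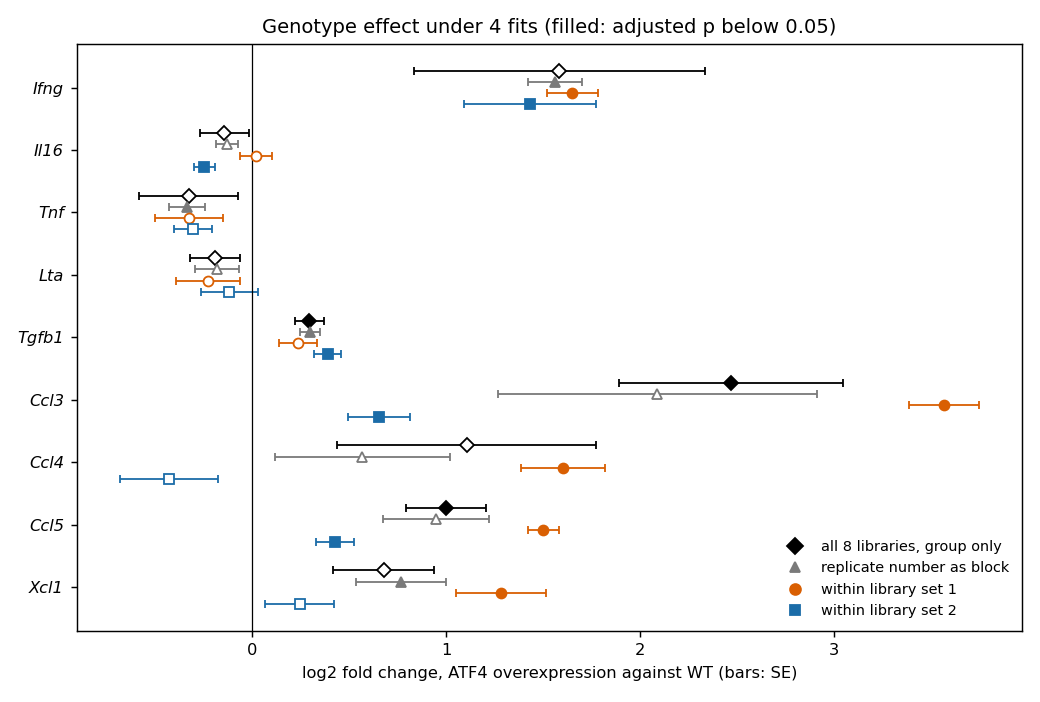
Log2 fold change of ATF4 overexpression against WT on the x axis (points, with SE bars) for the 9 genes tested, in 4 fits: all 8 libraries, the replicate block, library set 1 and library set 2. Filled points have an edgeR adjusted p below 0.05: Ifng lies between 1.43 and 1.65 in all 4 fits with an SE that shrinks from 0.75 to 0.14 under the block, while Ccl3 runs from 3.57 in set 1 to 0.65 in set 2.

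NK cells express the same chemokines, and their markers moved with the sets. The summed CPM of 12 NK cell markers was 99.7 to 222 in WT and 225 to 554 in ATF4 overexpression, with 5 of 12 higher, 0 lower and none at 0 in all WT libraries. With the replicate block 1 of the 12 was higher and with DESeq2 8, and 0 were lower in both. In set 1 the sum went from 99.7 and 99.98 CPM in WT to 478 and 554 CPM in ATF4 overexpression. In set 2 it went from 214 and 222 CPM to 225 and 232 CPM. The NK cell markers named here were chosen after their values were seen. Within set 2 Prf1, a large part of the sum, fell from 94.1 and 95.4 CPM to 56.1 and 56.6 CPM (edgeR adjusted p = 3.9e-04). Fcer1g, Tyrobp, Klrb1c, Ncr1 and Klrc2 were higher within set 2 (edgeR adjusted p from 5.4e-04 to 0.047), and no other NK cell marker was called there. The natural cytotoxicity receptor gene Ncr1 had a log2 fold change of 4.36 in set 1 and 0.62 in set 2. For each of the 12 markers the genotype effect differed between the sets in the interaction test (edgeR, adjusted p from 3.5e-06 to 0.0043). The part of NK cells in the chemokine values was not tested. In WT the NK cell sum was higher in set 2, where Ifng and Ccl4 were lower and Ccl3 and Ccl5 higher than in set 1.

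**Figure D3:**
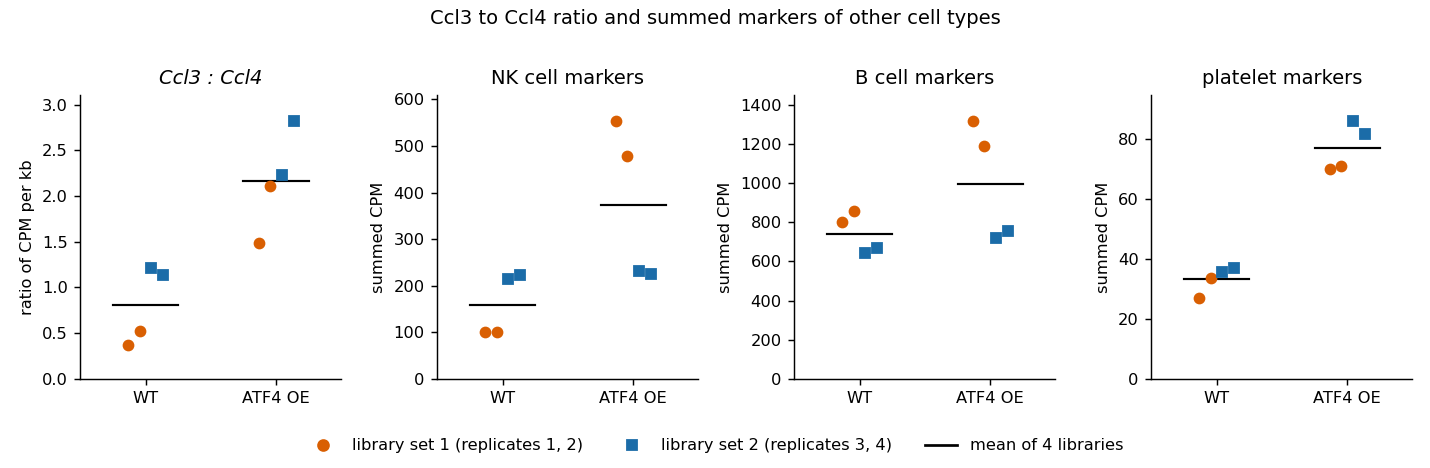
The first panel plots the ratio of Ccl3 to Ccl4 (CPM per kilobase) and the others the summed CPM of markers of NK cells, B cells and platelets, 1 point per library, circles for set 1, squares for set 2 and a line at the arithmetic mean. The NK cell sum is 478 and 554 CPM in the ATF4 overexpression libraries of set 1 and between 99.7 and 232 CPM in the other libraries. Most of the platelet sum is Itgb3, and most of the B cell sum in WT is Ighm. The ratio is above 1.4 in all 4 ATF4 overexpression libraries, and its relation to the markers was not tested.

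Markers of other cells were summed in the same way. Higher were 2 of 10 dendritic cell markers, 8 of 12 erythroid markers, 4 of 4 gamma-delta T cell markers in the table and 4 of 7 CD4 T cell markers, with 0 lower in each (0 also at an unadjusted p below 0.05 and with DESeq2). Of 14 genes of memory-phenotype CD8 T cells 6 were higher and 1 lower, with a summed level of 1155 to 1533 CPM in WT and 1546 to 1635 CPM in ATF4 overexpression. Of 12 genes of naive T cells 4 were lower and 0 higher (1 higher at an unadjusted p below 0.05, and 0 with DESeq2), and of 16 CD8 T cell genes 8 were lower and 0 higher. Memory-phenotype cells and gamma-delta T cells also express Ccl5 and Ifng, and their part in these values was not tested.

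Scaled per kilobase of merged exons, Ccl5 had the highest level of the 10 genes in both groups. In WT its mean was 115 CPM per kilobase (range 106 to 134), followed by Il16 at 40.9 (34.3 to 47.7), Xcl1 at 18.7 (10.4 to 28.7) and Tgfb1 at 18.6 (17.1 to 20.8). Tnf followed at 9.33 (6.88 to 11.7), Lta at 8.66 (7.23 to 9.93), Ccl4 at 5.44 (3.93 to 7.05), Ifng at 4.22 (1.09 to 7.07), Ccl3 at 3.88 (2.64 to 4.75) and Il2 at 0.0399. Neighbours in this order overlapped for Xcl1 and Tgfb1, for Tnf and Lta, for Ccl4 and Ifng, and for Ifng and Ccl3. In ATF4 overexpression Ccl3 stood at place 5 with a mean of 21.5 CPM per kilobase (7.23 to 35.7), against place 9 in WT, and Tnf moved from place 5 to place 9 (7.43, range 5.05 to 9.61). The range of Ccl3 overlapped those of all genes at places 2 to 9, and Lta, at place 8, overlapped Tnf.

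Receptors of these ligands were higher in 5 of 17 tested genes and lower in 0 (edgeR; at an unadjusted p below 0.05, 8 and 1, and with DESeq2 8 and 0), with a median log2 fold change of 0.22 against -0.02 over all genes. Il2ra, the alpha chain that gives the IL-2 receptor its high affinity, was at 1.37, 1.91, 2.97 and 3.56 CPM in WT and 7.05, 8.52, 9.76 and 10.3 CPM in ATF4 overexpression (log2 fold change 1.86 ± 0.30, adjusted p = 0.0028). Il2rb, its signalling beta chain, rose from 369 ± 50.0 to 553 ± 36.1 CPM (SD, n = 4; edgeR adjusted p = 0.0041). The common gamma chain Il2rg was at 726 and 666 CPM (edgeR adjusted p = 0.28, and 0.032 and lower with the replicate block). Ccr3, an eosinophil receptor that also binds CCL5, rose from 0.379 to 2.32 CPM (log2 fold change 2.61 ± 0.44, edgeR adjusted p = 0.0036). Il2ra and Ccr3 kept their calls without the 4 libraries short of low counts, and Il2rb lost it (adjusted p = 0.13). Il2rg, Ifngr1 and Tgfbr2 were named after their values were seen. The interferon-gamma receptor chain Ifngr1 was at 179 ± 7.57 and 208 ± 12.7 CPM (adjusted p = 0.058) and passed with the replicate block (0.22, adjusted p = 0.0053). With the block 8 receptors were higher and 2 lower, among them Tgfbr2, the TGF-beta receptor chain that binds ligand (-0.27, adjusted p = 0.014). Over all genes the block called 13.7% higher and 13.5% lower.

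Genes that cleave, store or activate the proteins were higher in 6 of 11 tested and lower in 1, with a median of 1.18. Furin, the convertase that cuts the TGF-beta 1 precursor, rose by 0.32 ± 0.07 from 57.1 to 71.4 CPM (adjusted p = 0.016). Ltbp1 and Ltbp3, which tether latent TGF-beta to matrix, rose from 0.235 to 3.02 CPM and from 0.111 to 2.09 CPM (edgeR adjusted p = 0.0032 and 3.5e-04). Ltbp1 and Ltbp3 kept their calls without the 4 libraries short of low counts and Furin lost it (adjusted p = 0.16). Megakaryocytes and stromal cells also express latent TGF-beta binding proteins, and the platelet marker sum, most of it Itgb3, was higher in the same libraries. The part of such cells in these values was not tested.

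No gene passed among 15 transcription factors that act on cytokine genes and 7 genes of cytokine mRNA decay and stability. At an unadjusted p below 0.05 edgeR had 2 transcription factors higher and 1 lower, and 1 decay gene higher and 0 lower, and DESeq2 called 1 transcription factor higher and no other gene of these lists. The genes of these lists named here were chosen after their values were seen. Tbx21, which encodes T-bet and binds Ifng, was at 24.2 ± 8.77 and 42.7 ± 7.96 CPM (SD, n = 4; edgeR adjusted p = 0.059). With the replicate block Tbx21 was higher (0.87, adjusted p = 0.0014), and Stat4 (-0.19, adjusted p = 0.024), Irf1 (-0.15, adjusted p = 0.027) and Rela (-0.14, adjusted p = 0.038) were lower. Of the decay genes the block called Elavl1 higher (0.14, adjusted p = 0.035) and Rc3h2 lower (-0.19, adjusted p = 0.030). The block thus called 1 transcription factor higher and 3 lower, and 1 decay gene in each direction. Over all genes it called 13.7% higher and 13.5% lower, so these counts do not set the 2 lists apart. Eomes, the related factor of memory cells, had a log2 fold change of -0.03 (adjusted p = 0.92). The medians were -0.00 for transcription factors and 0.06 for decay genes.

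Other cytokines and TNF family ligands were higher in 5 of 26 tested and lower in 2, with a median of 1.25, where 9.16% and 4.89% of all genes were called. The median gives genes of low and high level the same weight. Summed CPM of the list was 789 to 819 in WT and 747 to 778 in ATF4 overexpression. Ltb, its most abundant gene, named after its values were seen, fell from 438 to 373 CPM (edgeR adjusted p = 0.038). Cd40lg, the helper ligand of activated T cells, rose from 1.92 ± 0.39 to 5.98 ± 1.66 and Fasl, the death ligand of killer cells, from 2.85 ± 0.209 to 9.67 ± 4.55 CPM (SD, n = 4; edgeR adjusted p = 0.0026 and 0.0050). Tnfsf8, the CD30 ligand, fell from 86.4 ± 7.98 to 58.6 ± 5.20 CPM (edgeR adjusted p = 0.0031). Il12a, a subunit of IL-12 and IL-35, had 1 count in all of WT and 233 in all of ATF4 overexpression (ratio 212, 95% exact binomial interval 37.7 to 8419, which covers counting error only). Without the 4 libraries short of low counts Cd40lg (adjusted p = 0.057), Fasl (adjusted p = 0.053) and Tnfsf8 (adjusted p = 0.055) lost their calls. With the replicate block 11 genes of this list were higher and 2 lower, where 13.7% and 13.5% of all genes were called. Of 10 other chemokines tested edgeR called none (4 higher and 0 lower at an unadjusted p below 0.05, and also 4 and 0 with DESeq2), and 3 were higher with the replicate block.

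**Figure D4:**
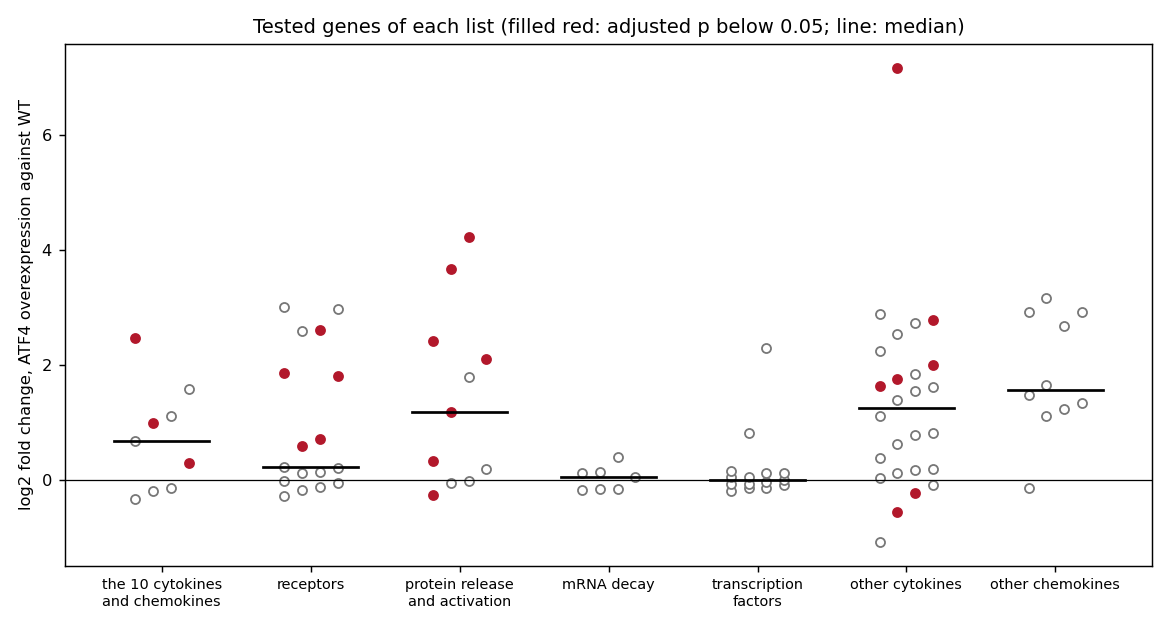
Log2 fold change (y axis) of every tested gene of the 7 lists on the x axis, with filled red points for an edgeR adjusted p below 0.05 and a line at the list's median. Receptors and release genes hold called genes, 5 of 17 and 7 of 11, and the lists of mRNA decay and transcription factors hold none. The highest point is Il12a, whose fitted value rests on 1 count in WT.

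Genes with the pattern most like a member over the 8 libraries were found for Ifng, Ccl3 and Ccl4, whose log2 CPM spanned at least 2. Likeness was the root mean square difference of log2 CPM after each gene was centred on its mean. Nearest to Ifng were Trp53inp2 (0.41), Klf4 (0.42) and Mir22hg (0.44). Nearest to Ccl3 were the small nuclear RNA gene Rn7sk (0.27), the NK cell receptor gene Klrc2 (0.38) and Sema4c (0.42), and nearest to Ccl4 were Csrnp1 (0.31), Plk3 (0.43) and Rnf223 (0.43). Klf4 was at 15.8 and 16.8 CPM in the WT libraries of set 1 and 1.53 and 2.13 CPM in those of set 2.

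Promoter letters are shown for Ccl3 and Tgfb1, which were called, and for Ifng, which was called within both sets. Each is the 250 bases before the annotated start on the gene's strand, from RefSeq (GRCm38.p6), with matches to the motifs searched in capitals. RefSeq entries were found for 8 of the 10 genes, and not for Ccl4 and Ccl5.
Ccl3 (chr11:83649379-83649628, minus strand): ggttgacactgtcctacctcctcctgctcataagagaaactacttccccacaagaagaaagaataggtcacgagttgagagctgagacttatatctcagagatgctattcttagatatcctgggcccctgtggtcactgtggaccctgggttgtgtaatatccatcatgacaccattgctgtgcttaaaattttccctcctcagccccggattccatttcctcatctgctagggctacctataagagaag
Tgfb1 (chr7:25686752-25687001, plus strand): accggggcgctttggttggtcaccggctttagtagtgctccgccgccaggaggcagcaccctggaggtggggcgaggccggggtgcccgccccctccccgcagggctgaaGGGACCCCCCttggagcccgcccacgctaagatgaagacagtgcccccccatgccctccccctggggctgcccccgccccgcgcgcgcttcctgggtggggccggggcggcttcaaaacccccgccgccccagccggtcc
Ifng (chr10:118440796-118441045, plus strand): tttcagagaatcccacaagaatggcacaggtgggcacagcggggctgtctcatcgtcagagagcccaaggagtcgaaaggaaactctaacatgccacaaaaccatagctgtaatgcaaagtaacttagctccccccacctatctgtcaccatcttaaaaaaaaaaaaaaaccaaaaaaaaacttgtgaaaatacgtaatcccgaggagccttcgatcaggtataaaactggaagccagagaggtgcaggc
The letters TGATGNAA, which ATF4 binds with a C/EBP partner, and TGACGTCA, the cyclic AMP response element, were searched on both strands and are in none of the 8 genes' promoters, while they are in 3.45% and 1.55% of 32851 promoters of that length. TGANTCA (AP-1) is in 6.75%, TGGAAA (NFAT) in 18.6% and the kappaB motif (GGGA, any 4 bases, CC) in 17.6%. The single match in the Tgfb1 window is the kappaB motif, at bases -140 to -131 counted back from the start. The windows of Ccl3 and Ifng hold no match to any of the 5 motifs, so their letters are all in lower case.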

How the data were processed

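The deposited table holds estimated counts by gene symbol. The submitters' processing notes name Salmon and GRCm38.p6. Salmon divides reads shared by overlapping genes by a model. No source used here gives the annotation release, strand setting or filters. The labels give paired 2 x 50 bp reads. All 8 columns were matched to samples by library name, with 0 unused, and groups come from the sample titles. Estimated counts were rounded and tested with edgeR 4.0.16 (R 4.3.3; quasi-likelihood, group as the only term, TMM, filterByExpr, robust) over 16630 genes. Calls use a Benjamini-Hochberg adjusted p below 0.05. CPM uses TMM-scaled library sizes, and log2 CPM a prior count of 2. Standard errors come from the F statistic.

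Alternatives were RLE, no filter, a stricter filter (1 CPM), DESeq2 1.42.0, replicate block, library set block, each set alone, each library left out, and the 4 libraries short of low counts left out. Same-numbered samples deviated together (correlations from 0.20 to 0.29), so the replicate numbers were treated as pairs, although different numbers of one set correlated similarly (0.16 to 0.25) and only 2 of 4 WT samples correlated best with their own number. Within groups, chi-square per degree of freedom was 38.5 or more for every pair, so no library repeats another. Coordinates are from GENCODE on GRCm38. The scripts were tested on simulated data. The members and lists were chosen with earlier results of these data known. Named were all members, and in each list the up to 4 called genes of smallest p, with exceptions stated. Some genes of the lists are counted but not reported by name here.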

Additional observations from a re-analysis of the deposited data

Results flagged for a closer look

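The genotype effect on 3 chemokine genes differed between the 2 library sets in an interaction test, as it did for each of the 12 NK cell markers. On the log2 scale the effect in set 2 minus that in set 1 was -2.89 for Ccl3 (edgeR, adjusted p = 4.9e-04), -2.004 for Ccl4 (adjusted p = 0.022) and -1.04 for Ccl5 (adjusted p = 0.0048). Among 44 groups of 4 libraries checked over 22 named genes, 1 met the rule for an outlying library. It was Il12a in WT replicate 3, at 0.00834 CPM, which is the only count of this gene in WT. A single count beside libraries at 0 always meets this rule, so the flag says nothing about that library. The rate of about 1 in 20 groups flagged by chance does not apply to such counts.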

How the results depend on the processing

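Of the 9 genes tested, 3 were called higher and 0 lower. Within set 1 edgeR called 5 higher while leaving out the 4 libraries short of low counts gave 0, and leaving out 1 library gave 1 to 3. A count of 1 gene was lower with the replicate block, with the library set block and within set 2, and 0 without any single library. Over all genes 1524 were higher and 813 lower. DESeq2 called 2342 higher, the library set block 2327 and set 2 alone 2434, and leaving out 1 library gave 1089 to 1431. Lower were 2237 with the replicate block, 1927 with the library set block, 528 in set 1, 1365 in set 2 and 333 without the 4 libraries, and 518 to 677 without 1 library. The replicate block moved higher calls from 1524 to 2279. Il16 turned from -0.14 to 0.021 within set 1, and Ccl4 from 1.105 to -0.43 within set 2 and -0.84 without the 4 libraries. The causes were not tested. Fewer libraries enter these fits, and without the 4 libraries WT keeps 1 library of each set against 2 of set 2, so group and set are partly confounded there. The interaction was called for 3 genes with TMM and with RLE, and for 4 without a filter. Lta kept its direction and side of the threshold in 17 of 17 alternatives. The Il2 difference ran from 0.0377 to 0.1000 CPM without 1 library. The ratio of Ccl3 to Ccl4 stayed between 2.36-fold and 3.48-fold without 1 library, with exact permutation p up to 0.086 where an ATF4 overexpression library was left out. With 2 libraries a group in each set, precision limits what can be told between sets.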

Other observations

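The summed level of 7 genes of cytokine mRNA decay and stability, most of it from Zfp36l2, Zfp36l1 and Zfp36, was 1953 and 2059 CPM in the WT libraries of set 1 and 1347 and 1410 CPM in those of set 2. In ATF4 overexpression the sums were 2297 and 2533 CPM in set 1 and 1269 and 1324 CPM in set 2. A difference between sets was not tested. The genes named were chosen after their values were seen. Zfp36l2, an RNA-binding protein that shortens the life of AU-rich messages, was at 812 and 852 CPM in the WT libraries of set 1 and 497 and 531 CPM in those of set 2. Zc3h12a, which encodes the ribonuclease Regnase-1, was at 53.4 and 60.2 CPM and at 28.7 and 26.4 CPM in the same libraries. Elavl1, whose protein stabilizes AU-rich messages, was at 75.9 to 79.5 CPM in WT and 84.1 to 87.7 CPM in ATF4 overexpression, with no overlap. The difference was small and not called (log2 fold change 0.14, edgeR adjusted p = 0.15, and 0.035 with the replicate block). That block called 13.7% of all genes higher. Of all genes tested, 13.3% had no overlap on the higher side. Ifng and Ccl4 were higher in set 1 of both groups, while Tnf and Il16 were lower there.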
